A study of Mus musculus with 8 samples.

Results

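The genes described here are those of MHC class I and class II antigen presentation in mouse white adipose tissue: protein-coding genes whose GENCODE symbol starts with H2-, together with B2m, Tap1, Tap2, Tapbp, Cd74, Ciita and Nlrc5. The rule goes by symbol and uses no measured value, and it gave 41 of the 37046 features in the deposited quantification. By role they comprised 2 classical class I heavy chains, 22 nonclassical class I heavy chains, 4 class I accessory genes, 4 class II chains, 6 class II accessory genes and 2 transcriptional regulators. The remaining gene, H2-Ke6, meets the symbol rule through an older name of Hsd17b8, a dehydrogenase gene of the same chromosomal region, and is kept as a gene with no role in antigen presentation. RNA was sequenced from 8 libraries of wild-type C57BL/6J female mice, whose tissue the labels call epididymal white fat. The 4 control libraries came from mice given phosphate-buffered saline, and the 4 endostatin libraries from mice given 50 mg/kg of endostatin, a fragment of collagen XVIII. Both were given through the tail vein, with food removed afterwards and tissue taken at 2 h. Libraries 1 and 2 of each group form batch 1 in the labels and libraries 3 and 4 form batch 2. The libraries are not tied to animals in the labels, and the description of endostatin 4 repeats the read-file stub of endostatin 3, so the p-values describe how much these samples vary, part of which may be technical.

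Class I molecules consist of a heavy chain and the light chain beta-2-microglobulin (B2m) and are made by nearly all nucleated cells. Peptides cut by the proteasome reach them in the endoplasmic reticulum through the Tap1-Tap2 transporter, which Tapbp (tapasin) bridges to the empty molecule. Class II molecules are made mainly by macrophages, dendritic cells and B cells, including the resident macrophages of fat. Their chains assemble with the invariant chain Cd74 and exchange its remnant for a peptide with the help of H2-DM. Ciita is the master regulator of class II transcription, and its relative Nlrc5 acts on class I genes.

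The proximal promoters of 5 of these genes are shown because class I and class II promoters share some elements and differ in others, and the main heavy chain, light chain and class II chain genes are among them. Promoter windows (250 bases before to 50 after the start, RefSeq, GRCm38.p6) were found for 34 of the 41 genes, 37 windows in all. Cd74, Ciita, H2-Ab1, H2-Q1, H2-T24, Nlrc5 and Tap2 had none. The 200 bases before the start are printed 5′ to 3′, and capitals mark matches to 4 motifs searched on both strands: CTGATTGG, the inverted CCAAT or Y box; GCAACNGAT, part of the X box; GGGATTCCC, the core of the NF-kB site of the class I enhancer; and GAAANNGAA, part of an interferon-stimulated element. Of the 2 windows of H2-K1, the one with the more downstream start is shown.
H2-Aa (chr17:34287824-34288023, minus strand): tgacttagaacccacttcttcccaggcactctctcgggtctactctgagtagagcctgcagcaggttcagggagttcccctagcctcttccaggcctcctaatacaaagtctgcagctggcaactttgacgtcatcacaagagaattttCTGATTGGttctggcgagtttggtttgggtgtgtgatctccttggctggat
H2-Eb1 (chr17:34305667-34305866, plus strand): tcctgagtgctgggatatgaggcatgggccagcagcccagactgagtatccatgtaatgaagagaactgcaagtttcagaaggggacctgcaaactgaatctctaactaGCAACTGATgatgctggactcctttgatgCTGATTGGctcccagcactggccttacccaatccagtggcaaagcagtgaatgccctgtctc
H2-K1 (chr17:34000334-34000533, minus strand): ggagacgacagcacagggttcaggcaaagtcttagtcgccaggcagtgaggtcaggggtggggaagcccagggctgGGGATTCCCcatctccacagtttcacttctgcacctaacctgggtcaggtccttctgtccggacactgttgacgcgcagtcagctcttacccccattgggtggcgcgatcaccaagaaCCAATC
H2-D1 (chr17:35262894-35263093, plus strand): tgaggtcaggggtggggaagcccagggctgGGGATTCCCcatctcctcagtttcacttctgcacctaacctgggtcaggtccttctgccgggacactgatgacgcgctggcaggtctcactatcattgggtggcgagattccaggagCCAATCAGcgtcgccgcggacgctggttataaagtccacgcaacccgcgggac
B2m (chr2:122147487-122147686, plus strand): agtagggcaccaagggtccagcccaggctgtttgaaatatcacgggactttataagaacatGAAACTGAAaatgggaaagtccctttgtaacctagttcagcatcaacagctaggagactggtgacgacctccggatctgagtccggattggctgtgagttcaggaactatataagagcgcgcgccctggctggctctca

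The Y box letters stood 51 bases before the start in H2-Aa and 62 in H2-Eb1. H2-D1 held them on the opposite strand, as CCAATCAG with its first base 53 before the start, and H2-K1 held the same reverse letters 6 bases before it, running past the printed end. The motif was in 14 of 25 class I genes with a window and in 4 of 8 class II genes, against 4.1% of all 32851 windows. The X box letters were found in H2-Eb1 (91 bases before the start) and H2-Eb2 (0.414% of all windows). The class I enhancer letters were found in H2-K1, H2-D1, H2-Q6 and H2-Q7 (0.353% of all windows), 170 bases before the start in H2-D1 and 124 in H2-K1. The interferon-type letters were found in B2m, 139 bases before the start, and in H2-T22 and H2-T23 (8.56% of all windows). The shorter core GATTGG, which lies inside the Y box letters, was in all 8 class II genes with a window and in 18 of 25 class I genes, against 16.1% of all windows. TGACG was in 13 class I genes and 1 class II gene, against 20.8% of all windows. These letters were chosen with the promoters in view, and a match describes the sequence only. Only these exact letters and spacings were searched, so a promoter without a match may still hold another form of the element.

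Class I genes were the more abundant class. Levels are given in TPM (transcript shares of a fixed total), which are scaled by transcript length. Total estimated counts were 15826783 to 19221886 in the control and 17197721 to 23786594 in the endostatin libraries. B2m stood at 2526, 2802, 2078 and 2289 TPM in controls 1 to 4 and at 2810, 3340, 3575 and 2329 TPM in endostatin 1 to 4. H2-D1 stood at 1036, 1122, 1068 and 1163 TPM in the controls and at 1089, 1470, 1919 and 1432 TPM after endostatin. Both genes were highest in endostatin 3, and the groups overlapped for each. H2-K1, the other classical heavy chain, which presents peptides to CD8 T cells as H2-D1 does, was at 861, 1046, 1056 and 823 TPM in the controls and at 1007, 1274, 1328 and 1040 TPM after endostatin. The ranges of H2-D1 and H2-K1 overlapped across libraries, and the ratio of their TPM was 1.01 to 1.44.

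The other class I assembly genes were lower. Tapbp was at 218, 259, 284 and 297 TPM in the controls and 237, 262, 348 and 344 TPM after endostatin. Tap2 ranged from 39.4 to 57.1 TPM, and its partner Tap1 from 20.7 to 33.4 TPM. The regulator Nlrc5 ranged from 24.8 to 44.6 TPM, with its highest value in control 2, the library that also had the highest Tap1 level. In counts normalised for depth (CPM), control 2 was close to endostatin 2, with 74.4 and 72.2 for Nlrc5 and 47.4 and 46.6 for Tap1. Protein-coding transcripts took 35.4% of the Nlrc5 TPM in control 2, their lowest share in any library.

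Among the nonclassical class I genes, 9 of 22 passed the count filter. H2-T22, whose product is bound by some gamma-delta T cell receptors, had mean levels of 99 ± 4.73 TPM in the controls and 127.6 ± 21.9 TPM after endostatin (SD, n = 4 each). H2-T23, which encodes Qa-1, a ligand of CD94/NKG2 receptors, was at 70.9, 107.5, 88 and 82.6 TPM in the controls and at 80.7, 103.5, 149.3 and 161.1 TPM after endostatin. Its endostatin libraries of batch 2 lay above all controls and those of batch 1 lay among them. H2-Q4 ranged from 51 to 82.4 TPM. The Qa-2 genes H2-Q7 and H2-Q6 ranged from 35.9 to 83.3 and from 19.8 to 40.5 TPM, with control 3 the highest library for both. H2-Q6, H2-Q7 and the other Q genes are close in sequence, so their separate estimates are uncertain. H2-M3, which presents N-formylated peptides, ranged from 8.27 to 16.2 TPM, H2-T24 from 2.87 to 6.16 TPM and H2-M9 from 2.15 to 5.1 TPM.

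H2-Q10, a class I gene known as a secreted product of liver, did not follow the others. It stood at 46.3, 18.1, 26.3 and 23.9 TPM in the controls and at 23.6, 45.5, 13.2 and 32.3 TPM after endostatin. The summed TPM of 7 hepatocyte markers in the same order was 128.8, 83, 17.4 and 27.3 in the controls and 284.4, 427.9, 21.4 and 823.6 after endostatin. The library with the highest H2-Q10 level (control 1) was not the one with the highest hepatocyte sum (endostatin 4), and endostatin 3 was the lowest in H2-Q10 with a low sum. The part of hepatocyte RNA in the H2-Q10 level was not tested.

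Of the class II genes, Cd74 was the most abundant, at 487, 854, 669 and 666 TPM in the controls and 765, 731, 1114 and 784 TPM after endostatin. H2-Aa stood at 245, 431, 340 and 345 TPM in the controls and at 375, 337, 540 and 420 TPM after endostatin. H2-Ab1, which encodes its partner beta chain, stood at 183, 344, 273 and 292 TPM in the controls and at 296, 276, 496 and 349 TPM after endostatin. In all of these, control 1 was the lowest library and endostatin 3 the highest, with the groups overlapping between. H2-Eb1 stood at 192, 347, 304 and 334 TPM in the controls and at 311, 316, 563 and 429 TPM after endostatin, in the same pattern. The C57BL/6 strain is known to lack the E alpha chain that H2-Eb1 pairs with. Its locus, H2-Ea-ps, which is annotated as a polymorphic pseudogene and is not among the 41 genes, had 0 counts in all 8 libraries, where a count of 0 allows up to 3 counts or 0.126 to 0.19 CPM (counts normalised for depth) per library, for counting error only.

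The peptide exchange genes H2-DMa and H2-DMb1 ranged from 26.1 to 49.8 and from 20.5 to 44.1 TPM, again lowest in control 1 and highest in endostatin 3. H2-DMb2 was lower, at 2.15 to 5.54 TPM. H2-Ob and H2-Oa, the chains of the H2-DO inhibitor of H2-DM found mainly in B cells, were the lowest tested genes, at 1.19 to 4.76 and 0.407 to 2.06 TPM. Ciita was at 5.71, 12.95, 8.5 and 9.81 TPM in the controls and at 9.79, 10.49, 11.35 and 9.67 TPM after endostatin. Control 1 was the lowest and control 2 the highest of the 8 for Ciita, so the endostatin libraries lay within the range of the controls.

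**Figure D1:**
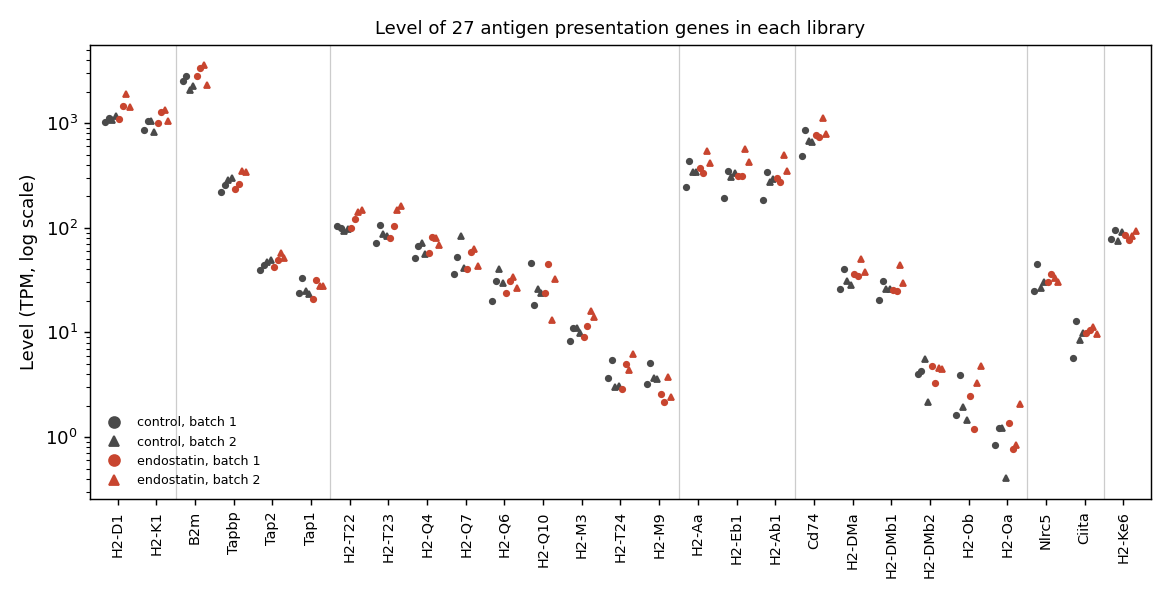
TPM of the 27 tested genes (log axis) in each of 8 libraries, grouped by role (classical class I, class I accessory, nonclassical class I, class II chains, class II accessory, regulators, H2-Ke6); each point is 1 library, grey for control and red for endostatin, circles for batch 1 and triangles for batch 2. B2m stood highest (2078 to 3575 TPM) and H2-Oa lowest (0.407 to 2.06 TPM), and no gene separated the groups fully.

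The remaining 14 genes did not pass the filter. H2-M10.1, H2-M10.2, H2-M10.3, H2-M10.4, H2-M10.5, H2-M10.6 and H2-T3 had 0 counts in all 8 libraries. H2-Q1, H2-Q2, H2-Eb2, H2-M1, H2-M2, H2-M5 and H2-M11 had at most 34.3 estimated counts over all libraries. Of the 20 counts of H2-Q2, 8 were in control 3 and 11 in endostatin 4. Oviduct and uterus markers were also raised there, with a sum of 884.2 TPM in control 3 and of 591.8 TPM in endostatin 4 (the other 6 held 122 to 161.4 TPM), and the part of such tissue in H2-Q2 was not tested.

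For several genes most of the estimated level was assigned to transcripts annotated as non-coding. Protein-coding transcripts took 13.8% to 19.4% of the H2-Eb1 level across libraries. The nonsense-mediated decay transcript H2-Eb1-205 took 43.6% to 54.8% of it and the retained-intron transcript H2-Eb1-204 took 27.6% to 39%. For the chains of the other class II heterodimer the protein-coding share was high, 98.1% to 98.75% for H2-Aa and 92.5% to 96% for H2-Ab1. The protein-coding share was 23.9% to 39.3% for Tap2, where the retained-intron transcript Tap2-202 took 60.7% to 76.1%, and 35.4% to 53% for Nlrc5. These shares depend on how Salmon divided reads between overlapping transcripts.

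H2-K1 showed a batch pattern at this level. Its short retained-intron transcript H2-K1-215 was at 174.2 and 287.3 TPM in controls 1 and 2 and at 271.9 and 287.1 TPM in endostatin 1 and 2, all of batch 1. In batch 2 it was at 64.1 TPM in control 3 and listed at 0 in control 4, endostatin 3 and endostatin 4. The batches did not overlap, and within each batch the groups did. This transcript was chosen after its values were seen, and no test was made of it. Without it, the mean H2-K1 level was 815.1 ± 130.1 TPM in the controls and 1023 ± 243.2 TPM after endostatin (SD, n = 4 each), against 946.5 ± 121.7 and 1162 ± 162 TPM with it.

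Cd74 has a short coding transcript, Cd74-201, and a long one, Cd74-202, which carries 1 more coding exon of 192 bases, or 64 codons. That exon is known to encode a thyroglobulin-like domain that interacts with lysosomal cathepsins. The long transcript made up 23.5%, 26%, 26.1% and 26.4% of both in the controls and 26.1%, 27.1%, 27.7% and 27.6% after endostatin. Its share thus varied little, and the groups overlapped.

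**Figure D2:**
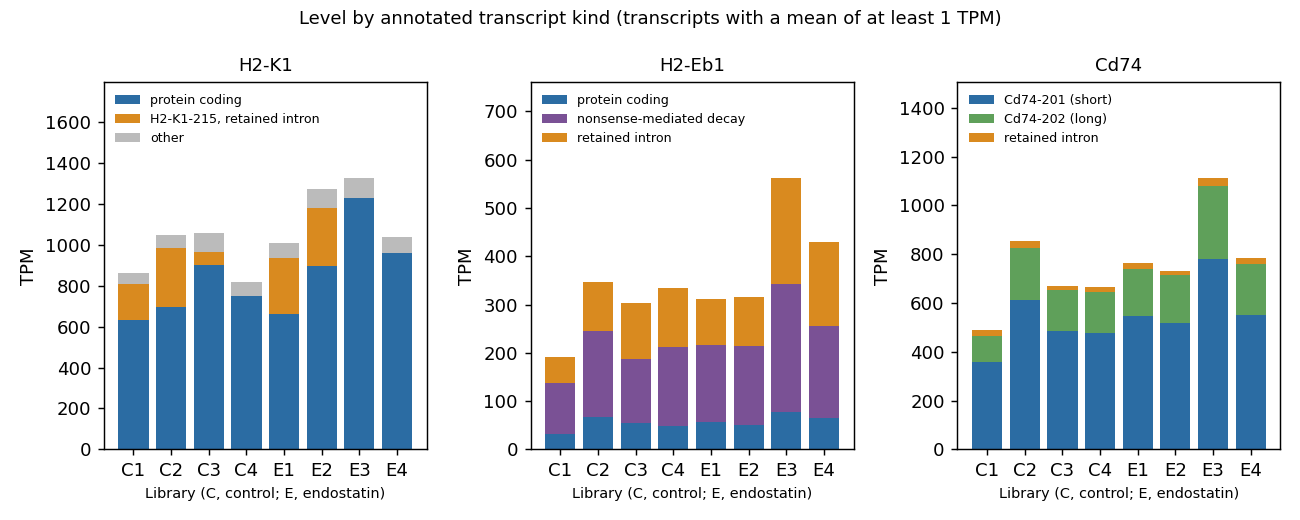
Stacked bars of TPM by kind of annotated transcript for H2-K1, H2-Eb1 and Cd74 in each library (C, control; E, endostatin; transcripts with a mean of at least 1 TPM). H2-K1-215 is present in C1, C2, E1 and E2 (174.2 to 287.3 TPM) and low or listed at 0 in the batch 2 libraries, most of H2-Eb1 lies in decay and retained-intron transcripts, and the long Cd74 transcript takes a steady share.

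No antigen presentation gene passed the test between endostatin and control. Among the 27 genes tested, 0 had an adjusted p below 0.05 in edgeR's quasi-likelihood test with Benjamini-Hochberg adjustment, where 0% of the 15601 features tested were called. At an unadjusted p below 0.05 the count was also 0 of 27, against 2.43% of all features higher and 0.904% lower. That count rose to 9 of 27 without control 2, against 871 of all 16112 features tested there. Of these 9 genes, 8 were among the 10 class II genes. Without endostatin 1 the count rose to 5 of 27, all class I, against 533 of 16075 features. It was 0 or 1 in the other settings run, and 0 were called at an adjusted p below 0.05 in any of them (edgeR, DESeq2 and limma-voom). DESeq2, which called 9 features (0.0449% higher and 0.0128% lower), and limma-voom, which called 0, each called 0 of the 27. For every one of the 27 the 95% interval of the log2 fold change included 0, and in CPM the groups overlapped for all of them (0.942% of all features were higher and 0.711% lower without overlap).

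Fold changes of these genes were mostly small and positive. Of the 27, 22 had a positive log2 fold change, with a median of 0.25; of all features tested 46.9% were positive, with a median of -0.01. All 10 tested class II genes were positive (median 0.30) and 12 of 16 class I genes were (median 0.15). These genes move together across libraries and are not independent of each other. The median of the 27 was 0.11 without endostatin 3 and 0.14 without controls 1 and 4. The class II median was 0.13 without endostatin 3, 0.16 without controls 1 and 4, 0.20 without control 3 and 0.54 without control 2. The class I median was 0.05 without control 3, 0.07 without endostatin 2, 0.26 without endostatin 1 and 0.24 without control 2. The endostatin libraries of batch 2 also held the highest sums of 12 macrophage markers, with 2168 TPM for endostatin 3 and 2220 TPM for endostatin 4, where the other 6 libraries held 997.6 to 1473 TPM. In bulk tissue, more cells of a type and more RNA per cell cannot be told apart, and the part of macrophage content in these fold changes was not tested.

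By role, the classical heavy chains H2-D1 and H2-K1 had log2 fold changes of 0.38 ± 0.20 and 0.28 ± 0.15 (± SE; 95% intervals -0.09 to 0.85 and -0.08 to 0.64). B2m had 0.28 ± 0.20. The assembly genes were nearer 0, with 0.06 ± 0.13 for Tapbp, 0.10 ± 0.11 for Tap2 and 0.09 ± 0.15 for Tap1, and the regulator Nlrc5 had 0.03 ± 0.17 (95% interval -0.36 to 0.42). Among class II genes, Cd74 had 0.30 ± 0.21, H2-Aa 0.24 ± 0.20, H2-Ab1 0.32 ± 0.23 and H2-Eb1 0.36 ± 0.21 (95% interval of H2-Eb1 -0.13 to 0.85). H2-DMa had 0.31 ± 0.21 and H2-DMb1 0.28 ± 0.20. Ciita had 0.36 ± 0.20 (95% interval -0.12 to 0.83). Single libraries moved most of these values by over 1.5 times. Without endostatin 3 the fold change was 0.23 for H2-D1, 0.17 for H2-K1, 0.09 for B2m, 0.13 for Cd74, 0.10 for H2-Aa, 0.14 for H2-Ab1, 0.22 for H2-Eb1, 0.11 for H2-DMa and 0.08 for H2-DMb1. Without control 3 it was 0.24 for H2-D1, 0.16 for B2m, 0.19 for Cd74, 0.12 for H2-Aa, 0.18 for H2-Ab1, 0.23 for H2-Eb1 and 0.18 for H2-DMb1. Without control 2 the class II genes moved the other way, to 0.52 for Cd74, 0.46 for H2-Aa, 0.57 for H2-Ab1, 0.60 for H2-Eb1, 0.52 for H2-DMa and 0.46 for H2-DMb1. H2-Aa was at 0.15 without control 1. Ciita was at 0.21 without control 1, at 0.58 without control 2 and at 0.12 with transcript length offsets (unadjusted p 0.635, edgeR). With 1 library left out, Tap1 ranged from 0.01 to 0.21, Tap2 from 0.02 without control 3 to 0.18 without endostatin 1, Tapbp from -0.05 to 0.14 and Nlrc5 from -0.11 to 0.13. The intervals of these genes allow a rise up to their upper bounds and a fall down to their lower bounds. Those of Nlrc5 (-0.36 to 0.42), Tap1 (-0.26 to 0.44) and Tapbp (-0.24 to 0.37) reached well to both sides of 0. The depth and spread thus do not show that the levels were alike.

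The positive fold changes with the smallest p were those of H2-T22, H2-T23 and H2-D1. H2-T22 had 0.31 ± 0.15 (unadjusted p 0.0698, adjusted p 0.9998, edgeR) and H2-T23 had 0.41 ± 0.22 (unadjusted p 0.0938, the same adjusted p). Without control 3 these values were 0.18 (unadjusted p 0.207) for H2-T22 and 0.27 (unadjusted p 0.271) for H2-T23, and without control 2 H2-T23 was at 0.62 (unadjusted p 0.00777, edgeR). The negative ones with the smallest p were those of H2-M9 at -0.55 ± 0.31, H2-Q6 at -0.15 ± 0.16 and H2-Ke6 at -0.08 ± 0.13. H2-Q7 at -0.08 ± 0.22 and H2-Q10 at -0.05 ± 0.32 were the other two below 0. H2-M9 lay at a mean of 1.71 CPM, where the count error is large, and was at -0.34 without control 2. With 1 library left out, H2-Q6 ranged from -0.27 to -0.04 and H2-Ke6 from -0.20 to -0.01, and H2-Q7 and H2-Q10 took both signs, with ranges of -0.21 to 0.08 and -0.27 to 0.19.

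**Figure D3:**
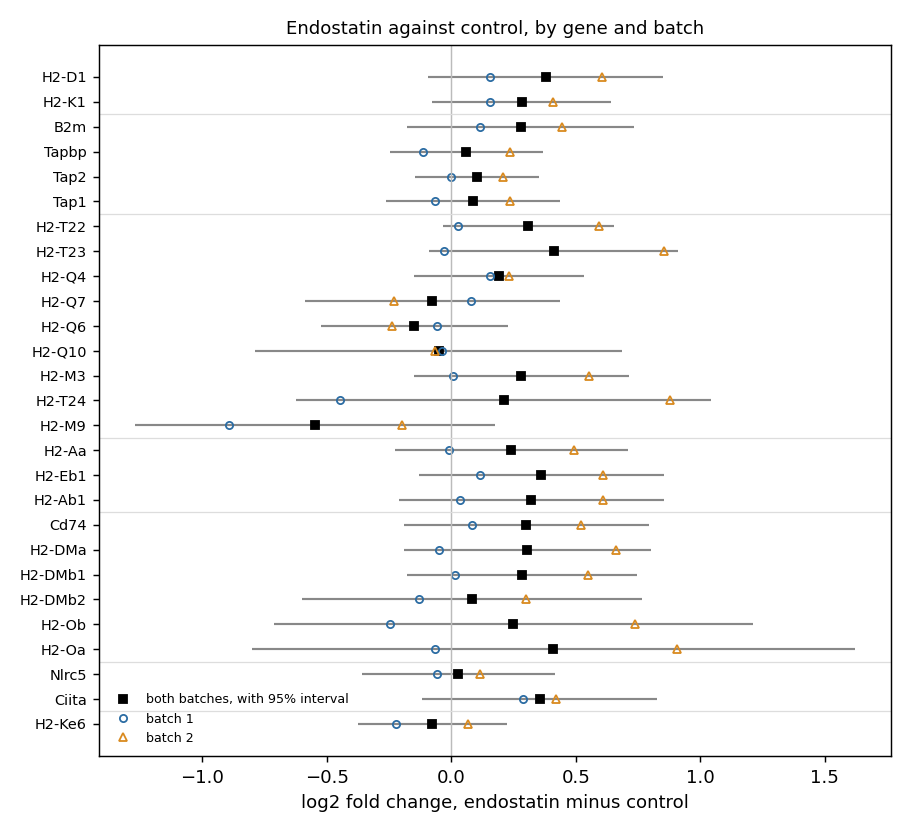
log2 fold change of endostatin against control for the 27 tested genes by role, as black squares with 95% intervals from edgeR, and within batch 1 (circles) and batch 2 (triangles). All 27 intervals cross 0, and the batch 2 values lie to the right of the batch 1 values for 24 of the 27 genes.

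The endostatin difference was larger in batch 2 than in batch 1 for most genes, but no gene passed the test of that difference. The median log2 fold change of the 27 genes was -0.01 in batch 1, with 13 of 27 positive, and 0.44 in batch 2, with 23 of 27 positive. Of all 15601 features tested, 7893 were positive in batch 1 and 7341 in batch 2. Of the interaction terms, 24 of 27 were positive, against 48% of all features tested. At an adjusted p below 0.05, 0 of 27 and 0% of all features passed (edgeR), and DESeq2 called 0 of the 27, against 0.147% of all features higher and 0.0385% lower. At an unadjusted p below 0.05 there were 2 of 27, both higher, against 2.12% of all features higher and 1.26% lower. These were H2-T23, with a within-batch fold change of -0.03 in batch 1 and 0.85 in batch 2 (unadjusted p 0.0247), and H2-T22, with 0.03 and 0.59 (unadjusted p 0.0416), both with an adjusted p of 0.998 in edgeR. H2-T24 had -0.45 and 0.88 (unadjusted p 0.0506). The most negative interactions by p were those of H2-Q7 (-0.31 ± 0.46), H2-Q6 (-0.18 ± 0.34) and H2-Q10 (-0.03 ± 0.68). The class II chains H2-Aa, H2-Ab1 and H2-Eb1 had interaction terms of 0.50 ± 0.39, 0.57 ± 0.44 and 0.50 ± 0.41. Each of these rests on 2 libraries per group and batch. The median interaction term of the 27 genes was 0.44. With 1 library left out it ranged from 0.21 without control 2 to 0.58 without endostatin 4, and was 0.27 without endostatin 3. For the class II genes the median was 0.52. It was 0.09 without control 2, 0.28 without endostatin 3 and 0.84 without control 1, so its size depends on single libraries. With 1 library left out, the count at an unadjusted p below 0.05 ranged from 0 to 7 of 27. The 7 were found without control 1, where 589 of all 16104 features tested were below it.

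Between the batches themselves the 27 genes did not pass the test either. Of the 27, 0 were called, against 0.00641% of all features higher and 0.032% lower in batch 2 (6 features in all, edgeR). At an unadjusted p below 0.05 the count was 0 of 27, against 5.41% higher and 4.48% lower. It was 5 of 27 without control 2, against 1431 of all 16112 features tested there. DESeq2 called 0 of the 27, against 0.603% of all features higher and 0.564% lower. The batches overlapped in CPM for all 27 genes (3.09% of all features were higher and 3.22% lower without overlap), and 15 of the 27 were higher in batch 2, against 52.2% of all features. The genes higher in batch 2 with the smallest p were H2-Eb1 (0.30 ± 0.21), H2-K1 (0.20 ± 0.15) and H2-M3 (0.23 ± 0.19), and those lower were H2-Q10 (-0.51 ± 0.32), B2m (-0.27 ± 0.20) and Nlrc5 (-0.23 ± 0.17). The smallest unadjusted p was 0.152, for H2-Q10 (adjusted p 0.601, edgeR).

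Summed over each class, class II varied more between libraries than class I. Class I genes (29 with Nlrc5) summed to 5075, 5749, 5007 and 5024 TPM in controls 1 to 4 and to 5577, 6926, 7794 and 5756 TPM in endostatin 1 to 4. In TPM the controls lay close together and the endostatin libraries spread upward from them, with endostatin 1 inside the control range. In CPM the class I sums were 3732, 3978, 3131 and 3765 in the controls and 3583, 4690, 5440 and 4022 after endostatin. Class II genes (11 with Ciita) summed to 1166, 2069, 1660 and 1705 TPM in the controls and to 1827, 1735, 2827 and 2071 TPM after endostatin. The highest library exceeded the lowest 2.43-fold for class II and 1.56-fold for class I in TPM, and 2.17-fold and 1.74-fold in CPM. On the log2 scale of TPM the endostatin mean exceeded the control mean by 0.31 for class I (0.20 in batch 1 and 0.42 in batch 2) and by 0.36 for class II (0.20 and 0.52). In CPM these differences were 0.27 for class I (0.09 and 0.45) and 0.32 for class II (0.11 and 0.53). The SD of log2 TPM sums was 0.10 in the controls and 0.23 after endostatin for class I, and 0.34 and 0.32 for class II. In CPM it was 0.15 and 0.26 for class I, and 0.34 and 0.29 for class II. The class II difference in TPM was 0.20 without control 1 and 0.21 without endostatin 3, so that each of these libraries holds much of it. As sums over chosen genes these values carry no test.

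The balance of the classes was alike in mean but not in every library. The ratio of summed TPM of the class II chains and Cd74 to that of H2-K1, H2-D1 and B2m was 0.25, 0.397, 0.378 and 0.383 in the controls and 0.356, 0.273, 0.398 and 0.413 after endostatin. The means were 0.352 ± 0.068 and 0.36 ± 0.063 (SD, n = 4 each), a difference well within the spread. Control 1 and endostatin 2 were the low libraries, and both belong to batch 1. Within class I, the ratio of B2m to both heavy chains was 0.942 to 1.34, and within class II the ratio of Cd74 to the chains was 0.654 to 0.788.

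**Figure D4:**
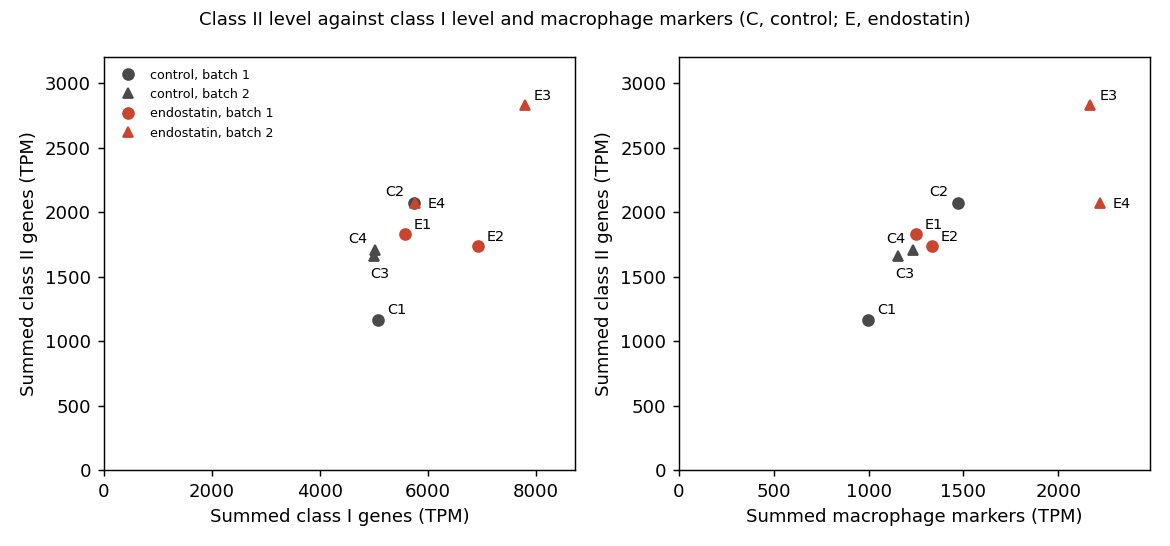
Summed TPM of the class II genes in each library against summed TPM of the class I genes (left) and of 12 macrophage markers (right), with axes from 0; C is control and E endostatin, circles batch 1 and triangles batch 2. Control 1 is lowest (1166 TPM) and endostatin 3 highest (2827 TPM) in class II, while endostatin 4, with a macrophage sum of 2220 TPM beside 2168 TPM in endostatin 3, has a class II sum near that of control 2.

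Across the 8 libraries the class II chains and Cd74 were closely correlated. Of 14 gene pairs compared by log2 CPM, 6 had an adjusted p below 0.05 for Pearson's r (exact two-sided permutation over all pairings, Benjamini-Hochberg over the 14). H2-Ab1 and H2-Aa, the chains of one heterodimer, had r = 0.986 and rho = 0.976 (exact permutation p 4.96e-05, adjusted p 0.000694). H2-Ab1 and H2-Eb1 had r = 0.989 and rho = 0.952 (exact permutation p 0.000124, adjusted p 0.000868). H2-Ab1 and Cd74 had r = 0.969 and rho = 0.881 (exact permutation p 0.000521, adjusted p 0.00243). Without control 1 and endostatin 3, the libraries farthest from the median, these 3 values of r became 0.977, 0.957 and 0.871.

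H2-Ab1 and H2-DMa had r = 0.870 and rho = 0.810 (exact permutation p 0.00444, adjusted p 0.0124), and H2-Ab1 and its regulator Ciita had r = 0.857 and rho = 0.786 (exact permutation p 0.00548, adjusted p 0.0128). Both were lower without the 2 libraries farthest from the median, a removal that also narrows the range. Both also missed the threshold without control 3 and endostatin 4, with r = 0.858 (exact permutation, adjusted p 0.0616) for H2-DMa and r = 0.840 (exact permutation, adjusted p 0.0806) for Ciita. On the log2(TPM + 0.1) scale Ciita had r = 0.808 (exact permutation, adjusted p 0.0583) and missed it as well. Without control 3 and endostatin 3, r of H2-DMa was 0.681 (exact permutation p 0.154), and without control 3 and control 1, r of Ciita was 0.622 (exact permutation p 0.181). For these 5 class II pairs rho had an adjusted exact permutation p of 0.00556, 0.00799, 0.0338, 0.061 and 0.0652 in the order given.

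In class I, the heavy chains H2-D1 and H2-K1 had r = 0.897 and rho = 0.762 (exact permutation p 0.0031, adjusted p 0.0108; 0.0735 for rho), and r = 0.991 without control 3 and endostatin 3. On the log2(TPM + 0.1) scale this pair had r = 0.765 and missed the threshold (exact permutation, adjusted p 0.0583). B2m and H2-K1 had r = 0.462 and rho = 0.262 (exact permutation p 0.25, adjusted p 0.269), and r = 0.111 without endostatin 3 and control 3. Tapbp and H2-K1 had r = 0.735 and rho = 0.524 (exact permutation p 0.0459, adjusted p 0.0858), and r = 0.500 without control 3 and endostatin 3. The regulator Nlrc5 had r = 0.232 and rho = 0.167 with H2-K1 (exact permutation p 0.589, adjusted p 0.589), and r = 0.555 without endostatin 4 and control 3. Its r with Tap1 was 0.631 and rho 0.810 (exact permutation p 0.0989, adjusted p 0.139), and r = 0.615 without endostatin 1 and control 2. Tap1 and Tap2 had r = 0.694 and rho = 0.643 (exact permutation p 0.0591, adjusted p 0.0919), and r = 0.632 without endostatin 3 and endostatin 1.

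Between the classes, H2-Ab1 and H2-K1 had r = 0.719 and rho = 0.381 (exact permutation p 0.049, adjusted p 0.0858). That relation was not seen without control 1 and endostatin 3, where r was 0.018. Cd74 and B2m had r = 0.599 and rho = 0.643 (exact permutation p 0.114, adjusted p 0.144; r = 0.735 without control 1 and endostatin 3), and Ciita and Nlrc5 had r = 0.517 and rho = 0.667 (exact permutation p 0.175, adjusted p 0.204; r = 0.611 without control 3 and control 1). Each batch holds 4 libraries, too few for a correlation of its own. With the batch means removed, r was 0.994 for H2-Aa and H2-Ab1, 0.952 for H2-DMa and H2-Ab1 and 0.913 for Ciita and H2-Ab1. It was 0.921 for H2-D1 and H2-K1, 0.863 for B2m and H2-K1 and 0.669 for H2-Ab1 and H2-K1. Tap2 and Tap1 had r = 0.823 there, and Cd74 and B2m had r = 0.774. Values with means removed sum to 0 within each batch and cannot be exchanged freely. Their permutation p is therefore not exact, and none is given. Ciita and Nlrc5 passed on the log2(TPM + 0.1) scale, with r = 0.869 (exact permutation, adjusted p 0.0239), and Tap1 and Nlrc5 without control 3 and endostatin 4, with r = 0.993 (exact permutation, adjusted p 0.00972). With batch and treatment means removed, Tapbp and H2-K1 had r = 0.770, again without a p.

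Over all pairs, the median r was 0.803 within class II (45 pairs), 0.474 within class I (120 pairs) and 0.466 between the classes (160 pairs), as a description over pairs that share libraries and depth. The 6 genes H2-Aa, H2-Ab1, H2-Eb1, Cd74, H2-DMa and H2-DMb1 had r of 0.824 to 0.989 with each other. H2-DMb2 and H2-Oa stood outside this block and had r = 0.748 with each other. In class I, H2-Q6 and H2-Q7 had r = 0.869 with each other, which their shared sequence can bear on, and B2m and Nlrc5 had r = 0.879. H2-Q10 had a median r of -0.183 with the other class I genes and its lowest value, -0.741, with H2-Ab1. H2-Ke6, the dehydrogenase gene, had a median r of 0.197 with class II.

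**Figure D5:**
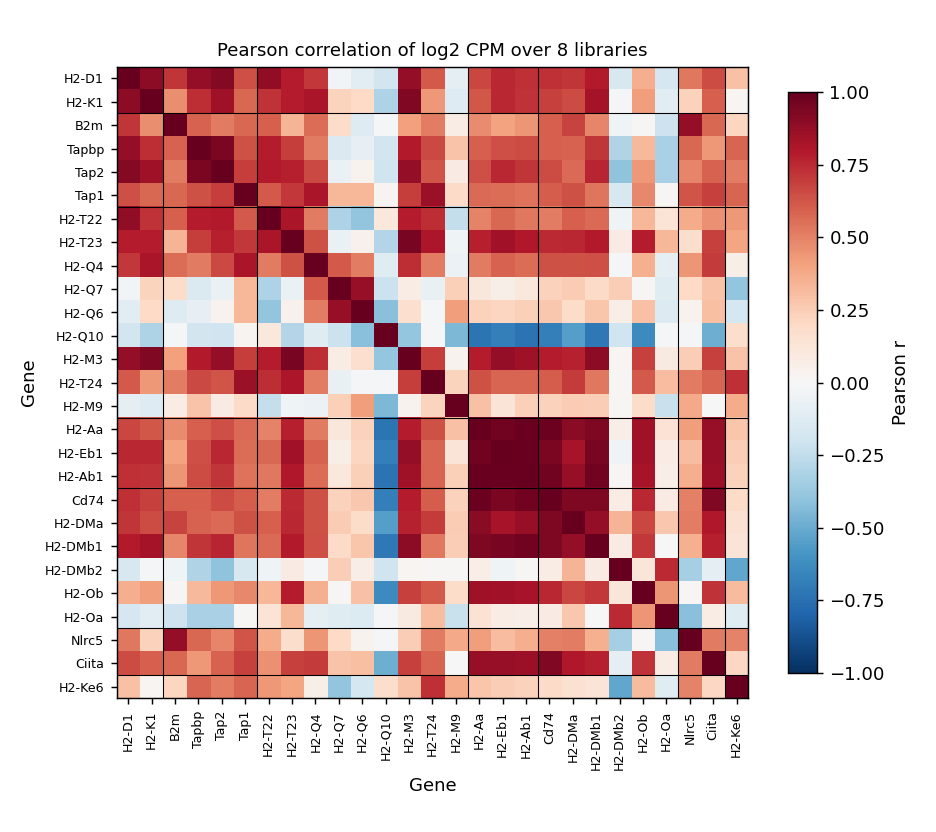
Heat map of Pearson's r of log2 CPM over 8 libraries for all pairs of the 27 tested genes, ordered by role with lines between roles (red positive, blue negative). The class II chains, Cd74, H2-DMa and H2-DMb1 form a block of 0.824 to 0.989, and H2-Q10 is negative with that block.

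Likeness to H2-Ab1 and H2-K1 was ranked among protein-coding genes whose mean reached 5 CPM, leaving out the antigen presentation genes of this report. The 8 whose log2 CPM was most like that of H2-Ab1 over the 8 libraries were Irf5, Arhgap15, Itgb2, Btc, Rac2, C5ar1, Cyth4 and Itgb7, with r of 0.91 to 0.943. The 8 most like H2-K1 were Rapgef3, Klhl6, Klf2, Kcnab2, Pofut2, Crem, Sh3bgrl3 and Mprip, with r of 0.912 to 0.953. Over all 11362 other genes of that level, the antigen presentation genes included, the median r was -0.022 with H2-Ab1 and -0.019 with H2-K1. The 95th percentiles were 0.666 and 0.634. The 8 genes of each list were picked for their high r, so these values carry no test.

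Genes that act with the antigen presentation genes were read from lists of known members, and 0 genes of any list were called between endostatin and control (edgeR, 0% of all features). Of the class II processing genes 7 of 9 had positive fold changes (median 0.27). Ctss, the cathepsin that trims the invariant chain, went from 29.8 ± 6.5 CPM to 46.9 ± 12.3 CPM (SD, n = 4 each), and Ifi30, a lysosomal thiol reductase, had a log2 fold change of 0.27 ± 0.13. The proteases and tetraspanins below 0 in that list were led by Ctsd at -0.34 ± 0.18 and Cd9 at -0.01 ± 0.40. Of the class II transcription factors 5 of 10 were positive (median 0.02), with Irf4 at 0.94 ± 0.44 and Spi1 at 0.57 ± 0.28, and Nfyc at -0.28 ± 0.11 and Rfxap at -0.15 ± 0.13. Irf4 reached 82.3 TPM in endostatin 4 and 38.5 TPM in endostatin 3, and the remaining 6 libraries held 7.18 to 18.4 TPM.

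The class I supply genes lay near 0. Of the peptide loading genes 1 of 7 was positive (median -0.01), with Erap1 at 0.02 ± 0.10, Hspa5 at -0.10 ± 0.13 and Canx at -0.03 ± 0.09. Of the proteasome and immunoproteasome subunits 4 of 8 were positive (median -0.01), with Psme1 at 0.08 ± 0.10, Psmb8 at 0.10 ± 0.14, Psmb5 at -0.13 ± 0.09 and Psmb6 at -0.04 ± 0.11. Of the interferon-gamma response genes 9 of 16 were positive (median 0.01), with Ifngr2 at 0.15 ± 0.11, Jak1 at 0.10 ± 0.09, Jak2 at -0.25 ± 0.30 and Gbp4 at -0.12 ± 0.18. Ifng itself was at 0 to 0.279 TPM. Of the costimulation genes 3 of 5 were positive (median 0.06), with Cd86 at 0.38 ± 0.28, Cd40 at 0.15 ± 0.25, Cd274 at -0.31 ± 0.14 and Cd80 at -0.12 ± 0.32.

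Markers of cells that could hold class II RNA moved as follows. Of 12 macrophage markers 11 were positive (median 0.38), with Cd68 at 0.71 ± 0.24 and Cd14 at -0.13 ± 0.23. Of 11 dendritic cell markers 8 were positive (median 0.17), with Batf3 at 0.65 ± 0.23 and Clec10a at 0.39 ± 0.25 and with Itgae at -0.42 ± 0.38 and Xcr1 at -0.15 ± 0.30, and their sum was 76.6 to 124.5 TPM in the controls and 102.1 to 162.5 TPM after endostatin. B cell markers summed to 161.4 to 380.4 TPM and 229.3 to 495.6 TPM, nearly all of it Ighm, while the defining markers Ms4a1 and Cd79a were at 0.62 to 1.39 and 0.37 to 1.33 TPM. Their tested members were positive in 5 of 6 (median 0.14), with Ighm at 0.33 ± 0.35 and Cd79a at -0.06 ± 0.46. T and NK cell markers summed to 9.07 to 25.4 TPM and 10.55 to 22.6 TPM. Lymph node stroma markers ranged from 15.3 to 216.8 TPM, highest in endostatin 4 and control 3. Their part in the class II levels was not tested.

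Adipocyte markers, the check of the labelled tissue, summed to 15030 to 32670 TPM in the controls and 22170 to 27620 TPM after endostatin, and endothelial markers to 315.4 to 365.4 and 327.7 to 384.4 TPM. Skeletal muscle markers were highest in controls 1 and 4, at 191.9 and 386.5 TPM, where the remaining 6 held 35 to 107 TPM. Without controls 1 and 4, 22 of the 27 genes had positive fold changes and 8 of 10 class II genes did. Without control 3 and endostatin 4, the libraries with oviduct and uterus markers, 20 of the 27 genes and all 10 class II genes were positive.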

How the data were processed

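Ribosomal RNA was removed from total RNA and dUTP-stranded libraries were prepared, per the labels' protocols. For each transcript the authors deposited estimated counts and TPM, made with Salmon on GRCm39 per the submitters' processing notes; no version or index is given in the sources used here. Transcripts were matched by identifier to GENCODE M21 for names and types only (113710 of 115620, 98.35%), and each gene's estimated counts were added up, then rounded.

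Counts were filtered (filterByExpr on the design, 15601 features), TMM-normalised and fitted with edgeR 4.0.16 (quasi-likelihood, R 4.3.3) with batch and treatment terms, a second model adding their interaction. Tests were two-sided, and the threshold was a p of 0.05 after Benjamini-Hochberg adjustment over all features. Log2 CPM used a prior count of 2. Correlations used exact permutation, which is not exact for values with batch or treatment means removed. DESeq2 1.42.0, limma-voom (limma 3.58.1) and other alternatives were run, and the edgeR script was tested on simulated data.

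This set of genes was proposed, and its symbol rule, the 16 context lists and the motifs were written, with earlier results of these data known. Named were 14 genes that define a role, up to 3 members per direction with the smallest p in each comparison, up to 2 genes per list and direction, and the 8 genes most like H2-Ab1 and H2-K1; H2-K1-215 and other transcripts were chosen after their values were seen. Near-identical H2 genes share reads, so their separate counts are uncertain. For 2 of the context lists, 1 gene that this rule names is not reported here.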

Additional observations from a re-analysis of the deposited data

Results flagged for a closer look

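In 4 values, 1 library stood far from the other 3 of its group (Dixon's test, 95%). These arose from 60 groups of 4 libraries examined, and chance alone gives about 1 in 20. The summed class I level of control 2 was 5749 TPM, against 5007 to 5075 TPM in the other controls. In CPM it was 3978, against 3131 to 3765, and control 3 at 3131 lay farthest from the others. The class II to class I ratio of control 1 was 0.2503, against 0.3775 to 0.3973. From CPM it was 0.2398, against 0.3366 to 0.391. Tap1 in control 2 was at 33.37 TPM, against 23.26 to 24.93 TPM. In CPM it was 47.37, against 33.29 to 37.53. Cd74 in endostatin 3 was at 1114 TPM, against 731.3 to 784.2 TPM. In CPM it was 672.9, against 457.7 to 465.7. The first 3 values thus stood out less in CPM. The causes of these 4 values were not tested.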

How the results depend on the processing

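The tested antigen presentation genes had 0 calls between endostatin and control in all 19 settings, and 0 between batches and for the interaction in the 16 settings that give these comparisons (not the replicate block, no batch term, or without controls 1 and 4). Over all features, DESeq2 called 9 between endostatin and control and 29 for the interaction, where edgeR, limma-voom and every left-out library gave 0. Between batches edgeR called 6 features, DESeq2 182, edgeR without a count filter 11, with protein-coding genes only 3, without control 3 and endostatin 4 33, and 0 to 10 with 1 library left out. The cause was not tested, beyond fewer genes tested with protein-coding genes alone.

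Of 23 named fold changes in 18 settings, 17 genes kept their sign in all. Tap1 was at -0.0034 with transcript length offsets. Without control 3 and endostatin 4, Tapbp was at -0.0089, Nlrc5 at -0.0134 and H2-Q7 at 0.1761. Without controls 1 and 4, H2-Ke6 was at 0.001 and H2-Q10 at 0.2691. With 1 library left out, Tapbp ranged from -0.0459 to 0.142, Nlrc5 from -0.1063 to 0.1318, H2-Q10 from -0.2717 to 0.188 and H2-Q7 from -0.2113 to 0.0827. The cause was not tested. The class sums and the ratios moved by less than the replicate SD. With 1 library left out, the log2 difference of the TPM sums was 0.219 to 0.38 for class I and 0.2036 to 0.4794 for class II. Summing all members was already the value reported. The number of covarying pairs was 5 to 9, against 6, a move of no more than 1.5 times. The 9 came with means removed, where the permutation p is not exact.

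With the replicate number as a block, 0 features were called (339 at an unadjusted p below 0.05, against 520 without the block, edgeR). The numbers do not pair the libraries: deviations of same-numbered libraries correlated at 0.139, 0.188, -0.144 and -0.295. Where a left-out library left 1 in a batch and group, it was assumed to vary like the others. Genes with few counts, such as H2-M9, H2-Oa and H2-Ob, are limited by depth.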
